A study of Mus musculus with 46 samples.

Results

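The genes described here encode the cytosolic elongation factors eEF1 and eEF2 and the kinase of eEF2. They were chosen by their symbols, Eef1a1, Eef1b2, Eef1d, Eef1g, Eef2 and Eef2k, and make up 6 of the 10453 gene symbols listed in the study. The study treated EPP2 cells, a murine pancreatic cancer line, with the mTOR kinase inhibitor torin 1 or its solvent DMSO, with or without the tRNA-modifying enzyme Ctu1. It then sequenced ribosome-protected fragments (footprints) and the RNA of the same lysates. Footprints were counted in 6 control DMSO, 6 control torin 1, 5 Ctu1KO DMSO and 6 Ctu1KO torin 1 libraries, and RNA was counted in as many libraries of each group.

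All groups received doxycycline at 300 ng/ml for 4 days, which induces Cas9 in these cells, and then 300 nM torin 1 or DMSO for 2 h. The parental line is a clone derived from a single cell. The labels give the genotype of the controls as WT and name no control guide, and they do not state what share of Ctu1KO cells had lost the enzyme. The methods state 2 biologically independent replicates on consecutive days, whereas the labels number up to 6 replicates per group and a figure legend calls the profiling replicates independent experiments. Which libraries share a culture is not given, so p-values measure the spread between libraries, which may in part be technical. The genes were selected with the footprint results of these comparisons in view. Footprint changes and changes of footprints relative to RNA are therefore given below as descriptions, and whether such a change passed an adjusted p of 0.05 is given only as part of that description. The p-values printed are those of RNA. Earlier results of these data were known when the genes and the further lists were chosen, so RNA p-values may not be independent of that choice.

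During elongation eEF1A carries aminoacyl-tRNA to the ribosome as a GTP complex, the eEF1B subunits recharge eEF1A with GTP, and eEF2 moves the ribosome along by a codon. The kinase eEF2K phosphorylates eEF2 and thereby slows elongation, and it is itself restrained by signalling through mTORC1. The mRNAs of most of these factors belong to the TOP mRNAs, whose translation mTORC1 promotes through a pyrimidine run at the very 5′ end. Ctu1, with Ctu2, adds sulphur to the wobble uridine of the tRNAs that read the lysine codon AAA, the glutamine codon CAA and the glutamate codon GAA.

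Coding sequence is shown because Ctu1 acts at these codons. Each line below is the stretch of 20 codons with the most AAA in the gene's coding sequence (the first such stretch, 5′ to 3′, GENCODE annotation of GRCm38), with AAA codons in capitals.
Eef1a1, codons 60 to 79: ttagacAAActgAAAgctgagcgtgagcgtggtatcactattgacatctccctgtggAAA
Eef1b2, codons 55 to 74: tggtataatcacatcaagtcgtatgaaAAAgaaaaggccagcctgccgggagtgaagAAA
Eef1d, codons 184 to 203: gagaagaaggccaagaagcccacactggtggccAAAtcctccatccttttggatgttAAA
Eef1g, codons 224 to 243: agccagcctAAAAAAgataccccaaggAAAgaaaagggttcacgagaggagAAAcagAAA
Eef2, codons 265 to 284: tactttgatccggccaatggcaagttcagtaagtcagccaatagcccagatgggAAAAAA
Eef2k, codons 46 to 65: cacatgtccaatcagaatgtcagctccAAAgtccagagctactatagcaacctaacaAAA

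The stretch of Eef1g holds 5 AAA codons, that of Eef1a1 3 and those of the other genes 2 each. Over the whole coding sequence AAA made up 4.11% of codons in Eef1a1, 3.56% in Eef1b2, 3.20% in Eef1g and 2.49% in Eef1d, all above the median of 2.19% over 9588 listed genes. It made up 1.40% in Eef2 and 1.24% in Eef2k, below that median. The 82 ribosomal protein genes had a median of 3.44%. For AAA, CAA and GAA together Eef1b2 was highest with 9.78% and Eef2 lowest with 2.45%, against a median of 6.13% over all genes.

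Start sites are shown because the pyrimidine run of TOP mRNAs lies there. The RefSeq promoter table (GRCm38) held 4 of the 6 genes, Eef1a1, Eef1b2, Eef2 and Eef2k. A run was taken as C followed by at least 4 letters that are C or T, on the transcribed strand, opening from 10 bases before to 20 bases after the annotated start, and it is in capitals in these windows of 30 bases.
Eef1a1, chr9:78481703-78481732, minus strand: ccgCCCTCTTCCCgagggtgggggagaacg
Eef2, chr10:81176623-81176652, plus strand: ggccgggcgttgacgtcagcggtCTCTTCC

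The run of Eef1a1 was 10 bases long and opened 5 bases before the annotated start, and that of Eef2 was 7 bases long and opened 15 bases after it. No run of this length was present in the windows of Eef1b2 and Eef2k. Such a run was found in 44.8% of 7829 listed genes in the table and in 70.5% of 61 ribosomal protein genes, so a match is a description of these letters and not of a start site in EPP2 cells.

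On GRCm38, Eef1a1 lies on chromosome 9 (78478449 to 78489151, minus strand), Eef1b2 on chromosome 1 (63176825 to 63180486, plus), Eef1d on chromosome 15 (75894205 to 75909556, minus), Eef1g on chromosome 19 (8967041 to 8978479, plus), Eef2 on chromosome 10 (81176631 to 81182498, plus) and Eef2k on chromosome 7 (120842831 to 120907450, plus). Several of these genes have near-identical copies. Of all 28-base stretches in the coding sequence, 95.9% in Eef1g, 89.6% in Eef1a1, 45.6% in Eef1d, 32.0% in Eef2 and 25.8% in Eef1b2 occurred elsewhere in the genome, against 0% in Eef2k. Reads from these stretches cannot be placed with certainty, so levels of the 5 factors carry that uncertainty and Eef2k does not. Eef1d is annotated with 5 coding lengths from 190 to 660 codons that its count pools, and its 3′ end overlaps Naprt on the same strand. Eef1b2 overlaps Ndufs1, and Eef2k overlaps Gm15774, on the opposite strand.

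Footprint counts over all genes analysed summed to 4585297 to 52775326 per library, and RNA counts to 129519708 to 324695548. By the 500 genes that torin 1 moved most in RNA replicates 1 and 2, the elongation factor genes left out, 6 RNA libraries of replicates 4 to 6 stood on the side opposite to their label, namely the libraries labelled Ctu1KO DMSO 4 and 5, control torin 1 replicates 5 and 6 and Ctu1KO torin 1 replicates 5 and 6. By 500 genes chosen in the same way from footprint replicates 1 and 2, none of the 15 footprint libraries of replicates 3 to 6 did. The other RNA libraries of replicates 4 to 6 stood on the side of their label. RNA results rest on replicates 1 to 3, as set when the genes were chosen, with all replicates as an alternative. Ctu1 RNA was 4.62 ± 0.12 CPM (counts per 1000000 counts of the library) in control DMSO and 4.63 ± 0.30 CPM in Ctu1KO DMSO libraries (SD, n = 3), and its footprints were 2.53 ± 0.65 (n = 6) and 1.79 ± 0.42 CPM (n = 5), with overlapping ranges. Cas9 edits need not lower a transcript, so these levels do not check the genotype. Of 8 epithelial markers 5 were listed, led by Krt8 at 118 to 176 CPM in control DMSO RNA, but Epcam was at 0.985 to 1.51 CPM. Of 4 fibroblast markers 3 were listed. Vim, which is also mesenchymal, was at 2268 to 2635 CPM, Col1a1 at 83.4 to 152 CPM and Pdgfrb at 22.2 to 33.7 CPM. Of 2 leukocyte markers Cd68 was listed, at 1.32 to 1.87 CPM. No acinar, islet or endothelial marker of those looked for was listed.

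Eef1a1 encodes eEF1A, the tRNA carrier, and had lower footprints with torin 1 and lower still when Ctu1 was also lost, while its RNA rose with torin 1. Its footprints ranged from 11714 to 13196 CPM in control DMSO libraries (median 12525) and from 5161 to 5839 CPM in control torin 1 libraries (median 5581). They were 10199, 10182, 9990, 11048 and 10275 CPM in Ctu1KO DMSO libraries, and ranged from 1815 to 2181 CPM in Ctu1KO torin 1 libraries (median 1962). The 4 groups did not overlap. Torin 1 was thus accompanied by a fitted log2 change of -1.26 ± 0.07 (SE) in control and of -2.48 ± 0.07 in Ctu1KO cells. Relative to the other genes, these are 2.39-fold and 5.59-fold lower footprint levels. Loss of Ctu1 went with a log2 change of -0.31 ± 0.06 under DMSO and of -1.53 ± 0.08 under torin 1. The torin 1 effect differed between the genotypes by -1.22 ± 0.09 on the log2 scale, which was rank 21 of 9857 genes counted from the lowest.

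RNA of Eef1a1 moved the other way. It stood at 9028, 8760 and 8659 CPM in control DMSO and at 11866, 10523 and 11411 CPM in control torin 1 libraries. In Ctu1KO cells it stood at 8137, 8289 and 9028 CPM with DMSO and at 10787, 9992 and 11708 CPM with torin 1. Every torin 1 library was above every DMSO library of its genotype. The log2 change was 0.38 ± 0.07 in control (edgeR quasi-likelihood test, adjusted p = 0.0111) and 0.41 ± 0.09 in Ctu1KO cells (adjusted p = 0.0352). Between the genotypes the RNA changed by -0.04 ± 0.07 under DMSO and -0.01 ± 0.09 under torin 1, with adjusted p of 0.795 and 0.970.

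Eef1b2 encodes the alpha subunit of the exchange factor, which recharges eEF1A. Its footprints ranged from 2212 to 2625 CPM in control DMSO (median 2300), from 777 to 994 CPM in control torin 1 (median 867) and from 347 to 452 CPM in Ctu1KO torin 1 libraries (median 439). In Ctu1KO DMSO libraries they were 2114, 1982, 1872, 2352 and 2031 CPM. The DMSO groups of the genotypes overlapped, and all other groups stood apart. The fitted log2 change with torin 1 was -1.53 ± 0.08 in control and -2.38 ± 0.09 in Ctu1KO cells, and the difference between these was -0.85 ± 0.11. In control cells the torin 1 change of Eef1b2 ranked 5 of 9856 genes tested, counted from the lowest.

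Eef1d encodes another exchange subunit (delta), and its footprints moved less than those of the other factors. They ranged from 2313 to 2787 CPM in control DMSO (median 2420), from 2137 to 2335 CPM in control torin 1 (median 2197) and from 1641 to 1858 CPM in Ctu1KO torin 1 libraries (median 1780). In Ctu1KO DMSO libraries they were 2237, 2333, 2528, 2368 and 2308 CPM. The first 2 groups overlapped slightly, and only the Ctu1KO torin 1 libraries lay below all others. The log2 change with torin 1 was -0.25 ± 0.08 in control, which did not pass the threshold with edgeR but did with DESeq2 and with the replicate number as a block, and -0.51 ± 0.07 in Ctu1KO cells. Loss of Ctu1 under torin 1 went with a log2 change of -0.37 ± 0.08.

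Because both exchange subunits were counted in the same library, their ratio does not depend on depth or scaling. Per footprint of Eef1d there were 0.959 ± 0.090 footprints of Eef1b2 in control DMSO (SD, n = 6) and 0.882 ± 0.097 in Ctu1KO DMSO libraries (n = 5). With torin 1 this ratio was 0.396 ± 0.046 in control and 0.240 ± 0.023 in Ctu1KO libraries (n = 6 each). The torin 1 libraries did not overlap with the DMSO libraries or with each other between genotypes. In RNA the same ratio was 0.949 ± 0.106 and 1.19 ± 0.086 without and with torin 1 in control, and 0.990 ± 0.071 and 1.11 ± 0.108 in Ctu1KO libraries (n = 3 each). The share of Eef1d among all footprints of the 5 factors was 12.8% ± 0.81 in control DMSO, 14.2% ± 0.75 in Ctu1KO DMSO, 23.3% ± 0.95 in control torin 1 and 38.1% ± 1.18 in Ctu1KO torin 1 libraries.

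Eef1g encodes the gamma subunit, a scaffold of the exchange complex. Its footprints ranged from 463 to 624 CPM in control DMSO (median 530.3), from 216 to 300.5 CPM in control torin 1 (median 270) and from 127 to 220 CPM in Ctu1KO torin 1 libraries (median 186). In Ctu1KO DMSO libraries they were 419, 457, 473, 480 and 469 CPM. Torin 1 separated the groups in both genotypes, whereas the torin 1 groups of the genotypes overlapped. The log2 change with torin 1 was -1.12 ± 0.11 in control and -1.43 ± 0.13 in Ctu1KO cells, and the difference between these, -0.30 ± 0.16, did not pass the threshold.

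With edgeR on replicates 1 to 3 and no replicate term, RNA of no exchange factor subunit passed the torin 1 test. Eef1b2 RNA stood at 1262, 1259 and 1125 CPM in control DMSO and at 1480, 1399 and 1346 CPM in control torin 1 libraries, and at 1275, 1335 and 1246 CPM in Ctu1KO DMSO and 1477, 1442 and 1399 CPM in Ctu1KO torin 1 libraries. All torin 1 libraries lay above the DMSO libraries of their genotype. Eef1g RNA ranged from 452 to 578 and from 509 to 649 CPM without and with torin 1 in control, and from 467 to 629 and from 530 to 699 CPM in Ctu1KO libraries, so its groups overlapped. Eef1d RNA ranged from 1246 to 1360 CPM and, lower and apart, from 1155 to 1212 CPM in control, and from 1230 to 1371 and 1198 to 1396 CPM in Ctu1KO libraries, which overlapped. For Eef1b2 the log2 change in RNA was 0.24 ± 0.07 in control (edgeR, adjusted p = 0.0549) and 0.22 ± 0.07 in Ctu1KO cells (adjusted p = 0.110). For Eef1g it was 0.21 ± 0.14 and 0.22 ± 0.16, and for Eef1d -0.09 ± 0.07 and 0.06 ± 0.09. Same-numbered RNA libraries deviated together, and with the replicate number as a block Eef1b2 and Eef1g passed in both genotypes (Eef1b2 adjusted p = 0.000517 and 0.0116, Eef1g adjusted p = 0.00147 and 0.0150). Eef1d did not. With this block 4206 of 9617 genes passed in control and 3378 of 9619 in Ctu1KO cells. Eef1b2 also passed in both genotypes with DESeq2, and in control cells with DESeq2 size factors, with replicates 1 and 2 alone and with all replicates.

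For Ctu1 loss no subunit passed in RNA with edgeR. Under DMSO the log2 changes were 0.10 ± 0.07 for Eef1b2, 0.03 ± 0.08 for Eef1d and 0.10 ± 0.15 for Eef1g (adjusted p = 0.424, 0.832 and 0.737). Under torin 1 they were 0.08 ± 0.07, 0.19 ± 0.08 and 0.11 ± 0.15 (adjusted p = 0.569, 0.273 and 0.732). With the replicate block Eef1d passed under torin 1 (0.19, adjusted p = 0.0218), as did 3162 of 9650 genes.

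**Figure D1:**
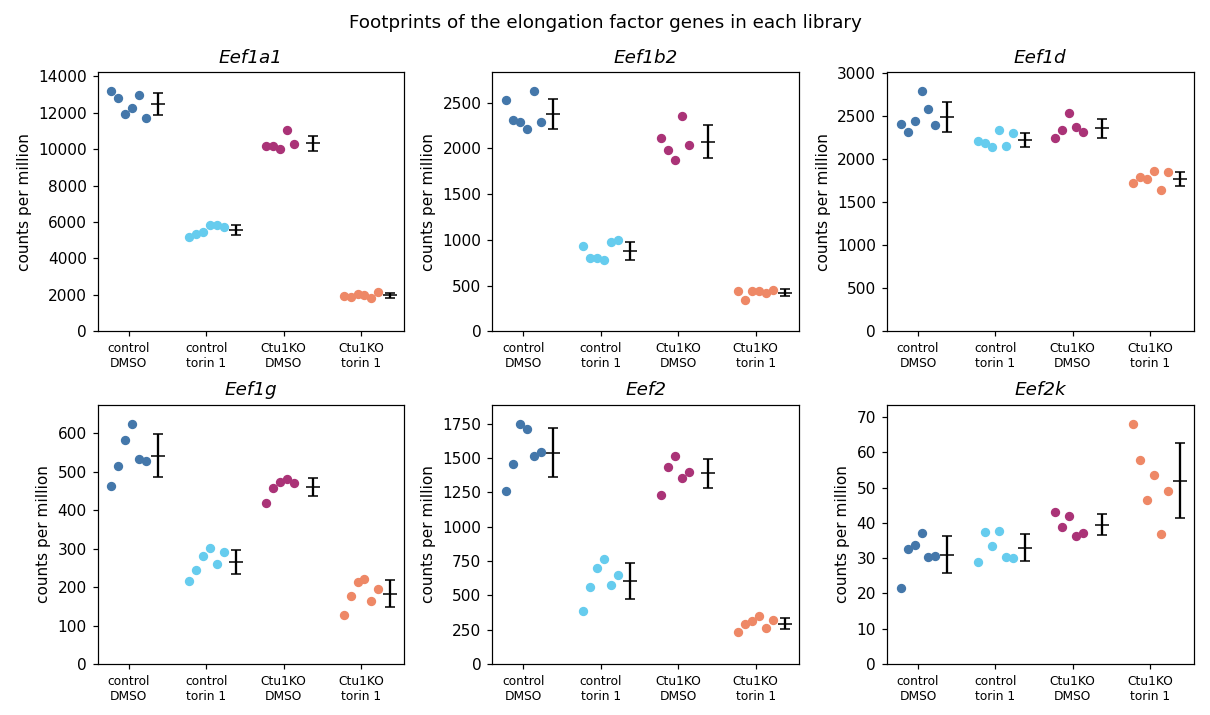
Footprints in CPM (linear axis from 0) for each of the 6 genes, with 1 point per library and the mean ± SD of each group in black. Eef1a1 goes from 11714 to 13196 CPM in control DMSO down to 1815 to 2181 CPM in Ctu1KO torin 1 libraries, whereas Eef1d stays at 1641 CPM or above throughout and Eef2k is highest in Ctu1KO torin 1 libraries.

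The translocase gene Eef2 had footprints of 1258 to 1749 CPM in control DMSO (median 1528), of 387 to 766 CPM in control torin 1 (median 611) and of 236 to 346 CPM in Ctu1KO torin 1 libraries (median 302). In Ctu1KO DMSO libraries they were 1233, 1433, 1518, 1353 and 1401 CPM. The DMSO groups overlapped, and both torin 1 groups lay apart from them and from each other. The log2 change with torin 1 was -1.43 ± 0.15 in control and -2.33 ± 0.11 in Ctu1KO cells. Ctu1 loss went with -0.19 ± 0.10 under DMSO, which did not pass the threshold, and with -1.09 ± 0.15 under torin 1. The difference between the torin 1 effects was -0.89 ± 0.19, beside -0.85 for Eef1b2 and -1.22 for Eef1a1. Whether these differences go with codon content was not tested.

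Eef2 RNA increased with torin 1 in both genotypes. It stood at 1982, 2009 and 2315 CPM in control DMSO and at 2856, 2643 and 2922 CPM in control torin 1 libraries. In Ctu1KO cells it stood at 2090, 2036 and 2338 CPM with DMSO and at 2921, 2889 and 3070 CPM with torin 1. The groups did not overlap within a genotype, and the log2 change was 0.45 ± 0.09 in control (edgeR, adjusted p = 0.0203) and 0.52 ± 0.09 in Ctu1KO cells (adjusted p = 0.0143). Ctu1 loss changed Eef2 RNA by 0.05 ± 0.10 under DMSO (adjusted p = 0.788) and by 0.12 ± 0.08 under torin 1 (adjusted p = 0.407). Under torin 1 the change passed with the replicate block (0.13, adjusted p = 0.0439), as did 3162 of 9650 genes.

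Eef2k, the kinase that inhibits eEF2, had few footprints, between 312 and 1606 counts per library. They ranged from 21.5 to 37.1 CPM in control DMSO (median 31.6), from 28.9 to 37.6 CPM in control torin 1 (median 31.8) and from 36.9 to 68.1 CPM in Ctu1KO torin 1 libraries (median 51.3). In Ctu1KO DMSO libraries they were 43.1, 38.8, 41.8, 36.3 and 37.1 CPM. All group pairs compared overlapped. The log2 change with torin 1 was -0.00 ± 0.14 in control (95% interval -0.29 to 0.29) and 0.30 ± 0.15 in Ctu1KO cells (-0.02 to 0.62). With Ctu1 loss it was 0.31 ± 0.13 under DMSO and 0.61 ± 0.15 under torin 1. Eef2k was the only one of the 6 genes with a positive footprint change in a comparison that passed the threshold, and this call was lost when single libraries were left out in 6 of 12 fits.

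RNA of Eef2k was 65.95, 62.3 and 63.3 CPM in control DMSO and 53.1, 58.0 and 55.6 CPM in control torin 1 libraries. In Ctu1KO cells it was 73.0, 68.8 and 68.8 CPM with DMSO and 61.2, 65.1 and 62.4 CPM with torin 1. The torin 1 libraries lay below the DMSO libraries in each genotype, with log2 changes of -0.17 ± 0.07 (edgeR, adjusted p = 0.142) and -0.10 ± 0.07 (adjusted p = 0.471). Ctu1KO libraries lay above control libraries, with log2 changes of 0.15 ± 0.06 under DMSO (adjusted p = 0.162) and 0.23 ± 0.08 under torin 1 (adjusted p = 0.180). With the replicate block 3 of these 4 comparisons passed, namely torin 1 in control (adjusted p = 0.0193) and Ctu1 loss under DMSO (adjusted p = 0.0487) and torin 1 (adjusted p = 0.0159). In these 3 the block called 4206 of 9617, 2831 of 10119 and 3162 of 9650 genes.

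The count of Eef2k relative to that of its substrate Eef2 in the same library summarises these shifts. Per 1 Eef2 footprint there were 0.02005 ± 0.0019 Eef2k footprints in control DMSO and 0.0286 ± 0.0036 in Ctu1KO DMSO libraries. With torin 1 there were 0.0563 ± 0.0118 in control and 0.181 ± 0.057 in Ctu1KO libraries (range 0.142 to 0.288), and the 4 groups did not overlap. In RNA the ratio was lower with torin 1, at 0.0199 ± 0.0018 against 0.0305 ± 0.0030 in control and 0.0213 ± 0.0011 against 0.0327 ± 0.0029 in Ctu1KO libraries. With torin 1, footprint and RNA ratios thus moved in opposite directions. With Ctu1 loss the mean ratio was higher in both assays, although the RNA ranges of the genotypes overlapped.

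**Figure D2:**
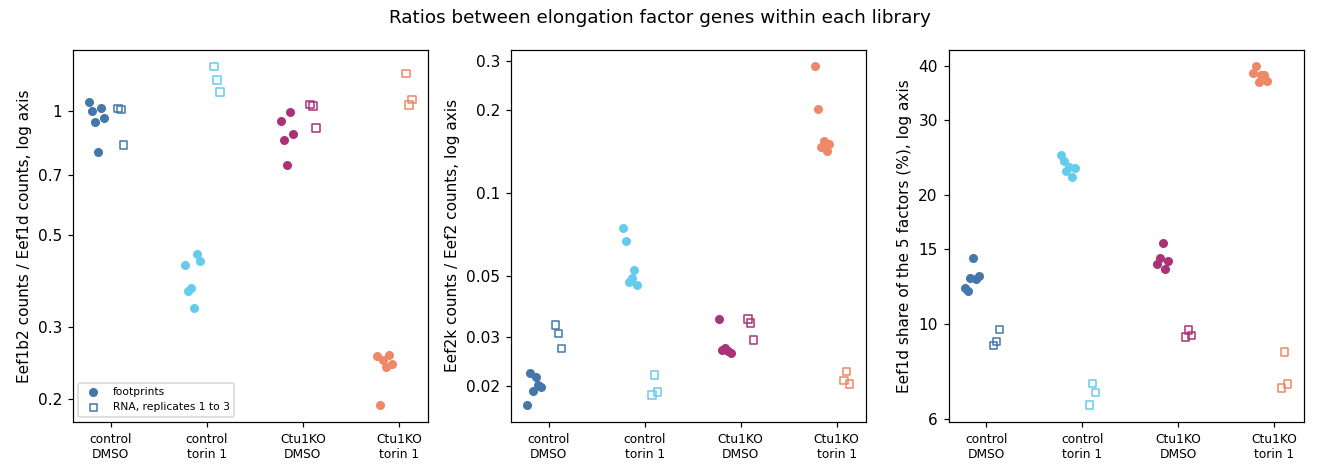
Ratios of counts within each library on log axes, for Eef1b2 over Eef1d, Eef2k over Eef2 and the percentage of Eef1d among the 5 factors, with filled circles for footprints and open squares for RNA replicates 1 to 3. In footprints the first ratio goes from 0.959 in control DMSO to 0.240 in Ctu1KO torin 1 libraries and the second from 0.02005 to 0.181, whereas the RNA ratios change less and in the other direction.

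**Figure D3:**
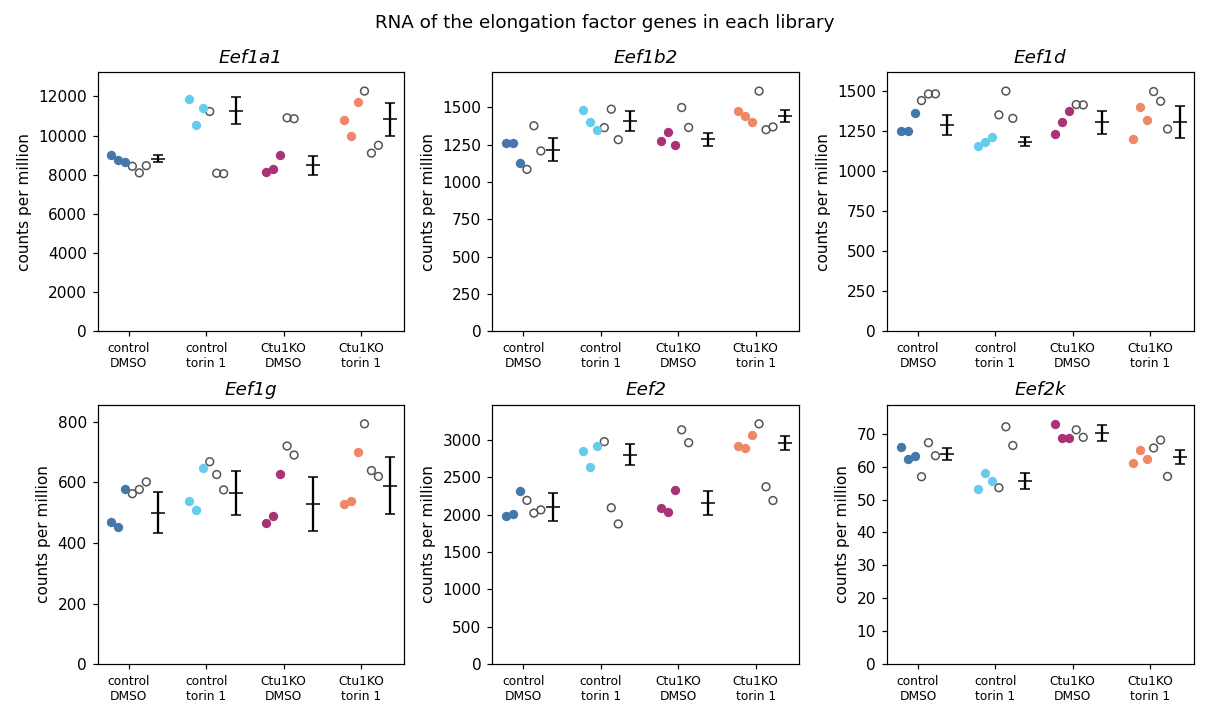
RNA in CPM (linear axis from 0) for each gene, with filled points for replicates 1 to 3, open points for replicates 4 to 6, and the mean ± SD of replicates 1 to 3 in black. Eef1a1 and Eef2 are higher with torin 1 in replicates 1 to 3, and the open points of control torin 1 replicates 5 and 6 lie at 8077 and 8051 CPM for Eef1a1.

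Per kilobase of coding sequence, footprint levels in control DMSO libraries fell in the order Eef1a1 (9002 ± 437 CPM per kb), Eef1b2 (3518 ± 240), Eef1d (2948 ± 204), Eef2 (598 ± 69.7), Eef1g (412 ± 42.5) and Eef2k (14.3 ± 2.41), where only Eef1b2 and Eef1d overlapped between libraries. The order was the same in Ctu1KO DMSO libraries. In control torin 1 libraries Eef1d (2633 ± 94.2) stood above Eef1b2 (1302 ± 145), and in Ctu1KO torin 1 libraries Eef1d came first (2101 ± 97.7), above Eef1a1 (1427 ± 96.3) and Eef1b2 (628 ± 57.4). Eef1g and Eef2 overlapped in both torin 1 groups. Per kilobase of transcript, RNA levels in control DMSO libraries fell in the order Eef1a1 (4914 ± 106), Eef2 (681 ± 59.7), Eef1b2 (627 ± 40.5), Eef1d (556 ± 28.1), Eef1g (268 ± 36.4) and Eef2k (9.70 ± 0.289). The order was kept in all 4 RNA groups, although Eef2 and Eef1b2 overlapped in both DMSO groups and Eef1b2 and Eef1d in control DMSO. Lengths are those of the annotated transcript chosen for each gene, such as 1939 bases for Eef1b2 and 2312 bases for Eef1d. Both orders depend on the lengths chosen and on reads shared with near-identical copies, so they are not a measure of abundance.

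With torin 1 in control cells 4 of the 6 genes passed an adjusted p of 0.05, all lower, and 7.24% of all genes tested did (4.33% lower). In Ctu1KO cells 5 passed, all lower, against 8% of all genes (4.52% lower). With Ctu1 loss 1 gene passed under DMSO, Eef1a1, which was lower (2.66% of all genes, 1.04% lower), and all 6 passed under torin 1, 5 lower and Eef2k higher (4.83% of all genes, 2.6% lower and 2.23% higher). The difference between the torin 1 effects passed for Eef1a1, Eef1b2 and Eef2, against 0.639% of all genes, all lower. With replicates 1 to 3 alone 1 gene passed for Ctu1 loss under torin 1, and none with replicates 1 and 2, although the log2 changes of Eef1a1 were -1.48 and -1.49 and those of Eef2 -1.02 and -0.88. The selection used these contrasts, so nothing is read from the counts. Footprint CPM did not overlap between the groups for 4 and 5 of the 6 genes with torin 1 in control and Ctu1KO cells (6% and 8.68% of all genes), and for 1 and 4 genes with Ctu1 loss under DMSO and torin 1 (4.68% and 4.5%). The 6 genes together took 1.85% to 2.02% of all footprints in control DMSO libraries, 1.62% to 1.76% in Ctu1KO DMSO, 0.894% to 1.01% in control torin 1 and 0.434% to 0.505% in Ctu1KO torin 1 libraries.

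In RNA Eef1a1 and Eef2 passed with torin 1 in each genotype, both higher, where 13.1% of all genes passed in control (5.69% higher) and 8.25% in Ctu1KO cells (3.73% higher). No gene of the 6 passed for Ctu1 loss with edgeR, where 5.12% of all genes passed under DMSO and 1.31% under torin 1. None passed with DESeq2, which called 1530 of 10119 and 1092 of 9650 genes. With edgeR 1 of the 6 had an unadjusted p under 0.05 in each comparison, as did 2470 of 10119 and 1932 of 9650 genes. RNA CPM did not overlap for 5 and 4 of 6 genes with torin 1 in control and Ctu1KO cells (32.9% and 32.3% of all genes), and for Eef2k alone with Ctu1 loss under DMSO and torin 1 (31.2% and 27.1%). When 1 library was left out, the calls of Eef1a1 and Eef2 were lost in 1 and 3 of 6 fits in control and in 5 and 3 of 6 fits in Ctu1KO cells. With the replicate block the counts of calls were 5 and 4 of 6 for torin 1 in control and Ctu1KO cells and 1 and 3 of 6 for Ctu1 loss under DMSO and torin 1. In the same order the block called 4206 of 9617, 3378 of 9619, 2831 of 10119 and 3162 of 9650 genes, so nothing is read from these counts. With all RNA replicates, of which 6 went against their labels, the torin 1 changes of Eef1a1 and Eef2 passed in neither genotype (0.28 and 0.32 in control, 0.18 and 0.16 in Ctu1KO cells), and Eef1b2 passed in control cells (0.22, adjusted p = 0.0380).

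Translational efficiency, the footprint level over the RNA level, was computed for replicates 1 to 3 from the libraries with the same group and replicate number, which the labels do not state to share a lysate. For Eef1a1 its log2 was 0.52 ± 0.05 in control DMSO, 0.26 ± 0.10 in Ctu1KO DMSO, -1.08 ± 0.11 in control torin 1 and -2.46 ± 0.05 in Ctu1KO torin 1 library pairs (SD, n = 3). For Eef2 it was -0.51 ± 0.13, -0.63 ± 0.13, -2.39 ± 0.43 and -3.41 ± 0.19 in the same order. For Eef1d it was 0.89 ± 0.06, 0.86 ± 0.02, 0.88 ± 0.06 and 0.44 ± 0.08, where the Ctu1KO torin 1 pairs lay below the others, which overlapped. For Eef2k it was -1.16 ± 0.40, -0.77 ± 0.05, -0.75 ± 0.12 and -0.15 ± 0.29.

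Fitted in a joint model of both assays, efficiency with torin 1 changed by -1.73 ± 0.11 for Eef1a1, -1.84 ± 0.12 for Eef1b2, -1.38 ± 0.21 for Eef1g and -1.98 ± 0.27 for Eef2 in control cells. In Ctu1KO cells the changes were -2.89 ± 0.12, -2.62 ± 0.15, -1.71 ± 0.26 and -2.94 ± 0.17. The largest fall in efficiency was that of Eef2, which ranked 2 of 9615 genes in Ctu1KO cells, and Eef1a1 ranked 3. The selection used these contrasts too, so nothing is read from the counts that follow. With torin 1, 4 of the 6 genes passed in control cells (1.18% of all genes, 1.12% lower) and 5 in Ctu1KO cells (1.77%, 1.67% lower), where Eef1d passed with -0.60 ± 0.13 but lost the call in each of the 6 fits that left out a library pair. For Ctu1 loss under torin 1 Eef1a1 (-1.45 ± 0.13) and Eef1b2 (-1.15 ± 0.16) passed, against 0.114% of all genes, and Eef2 had -1.12 ± 0.26 without passing. Leaving out a library pair left at most 1 of these calls. Under DMSO no gene of 10117 passed with edgeR, where 388 had an unadjusted p under 0.05, and 21 passed with DESeq2, none of them among the 6. Whether efficiency responded differently to torin 1 in the genotypes was not tested.

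**Figure D4:**
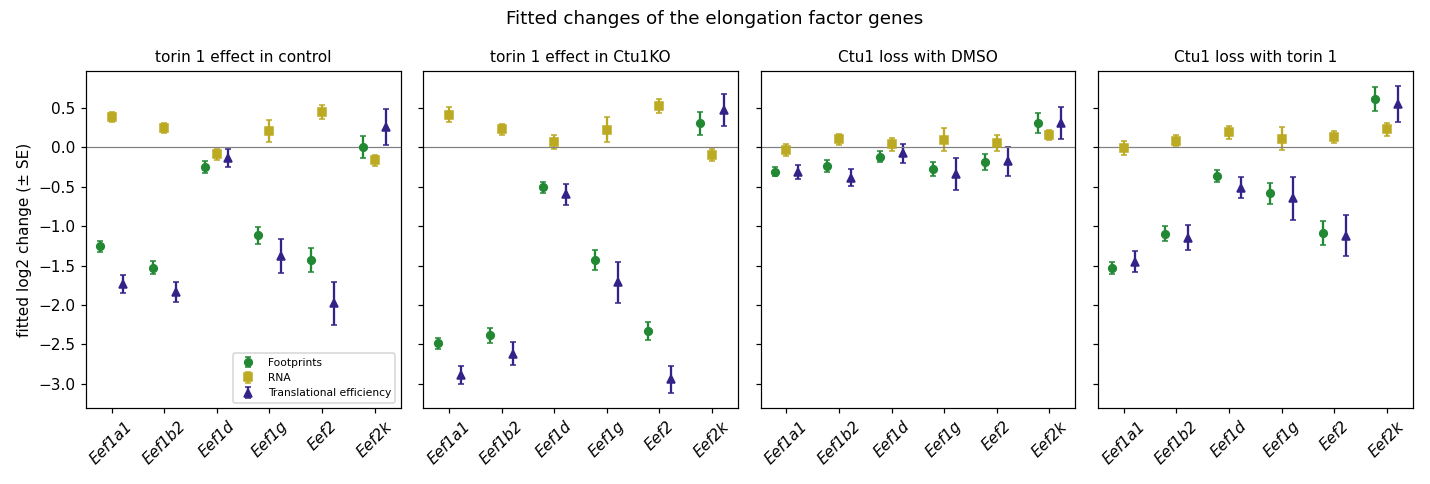
Fitted log2 changes ± SE of the 6 genes in footprints (circles), RNA (squares) and translational efficiency (triangles) for the 4 comparisons. Footprints and efficiency of Eef1a1, Eef1b2, Eef1g and Eef2 lie far below 0 with torin 1 while RNA lies at or above 0, and Eef1d and Eef2k stand apart from these 4 genes.

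The 82 ribosomal protein genes, most of them TOP mRNAs, give a scale for these changes. Their median log2 footprint change with torin 1 was -0.96 in control and -1.58 in Ctu1KO cells, and 79 and 81 of 82 passed the threshold as lower. The medians of the 5 factors without the kinase were -1.26 and -2.33. Over all genes the medians were 0.01 and 0.02. For Ctu1 loss under torin 1 the ribosomal protein median was -0.71, and 72 of 82 passed the threshold as lower. Eef1a1 lay below every one of the 82, Eef1b2 below 80 and Eef2 below 79. In contrast Eef1d lay below 6 and Eef1g below 20. For the difference between the torin 1 effects the ribosomal protein median was -0.64 and the highest value -0.14, and 39 of 82 passed the threshold. Eef1a1 again lay below all 82. Eef2k lay above all 82 in both. No ribosomal protein gene passed for Ctu1 loss under DMSO with edgeR, where their median was -0.07. Of the 82, 9 had an unadjusted p under 0.05, as did 1863 of 10397 genes. DESeq2 called 5 of the 82, 2 higher and 3 lower, and 700 of 10397 genes.

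**Figure D5:**
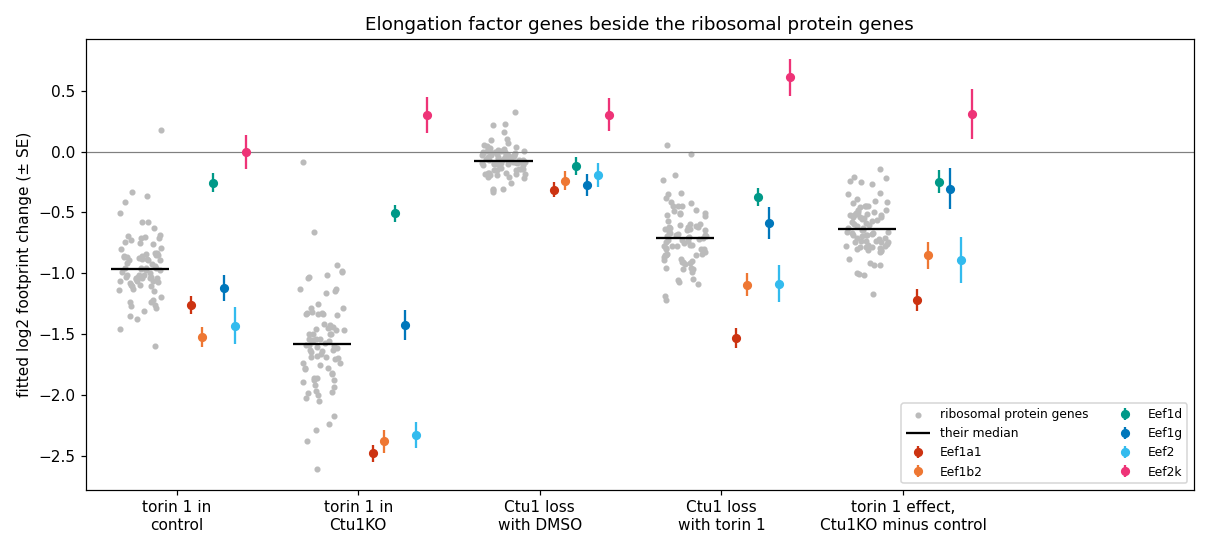
Fitted log2 footprint changes of the 82 ribosomal protein genes (grey, median as a black bar) and of the 6 genes (coloured, ± SE) in the 4 comparisons and the difference between torin 1 effects. Eef1a1 lies below all ribosomal protein genes for Ctu1 loss under torin 1, at -1.53 against their median of -0.71, and Eef2k lies above all of them.

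Over the 23 footprint libraries, and among 8385 genes with at least 100 counts on average in each table, the profile of Eef1a1 was nearest to Rps18-ps5, Eef1b2 and Rps18-ps6, with a root mean square difference of 0.175, 0.197 and 0.205 in log2 CPM against a median of 1.14 over all genes. Rps18-ps5 and Rps18-ps6 carry names of pseudogenes of Rps18, a ribosomal protein gene, and may share its reads. Eef2 was nearest to Rps19 (0.224), Rpl13a (0.251) and Gm45713 (0.253), with Eef1a1 at rank 5 (0.266). Eef2k was nearest to Actn4, Antxr2 and Actn1, with 0.184, 0.187 and 0.187 against a median of 0.457. These values describe 23 libraries that share 4 conditions.

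Of 12 further elongation, release and ribosome rescue genes tested with edgeR, 1 was lower in footprints with torin 1 in control cells, the rescue factor gene Pelo (-0.78 ± 0.16), and 1 in Ctu1KO cells, Eef1e1 (-0.72 ± 0.18), which encodes a multisynthetase complex protein. Their median log2 changes were -0.12 and -0.16. Over all genes 7.24% and 8% passed (4.33% and 4.52% lower), so nothing is read from these counts. DESeq2 called 2 lower in control cells and 1 higher and 1 lower in Ctu1KO cells. Over all genes it called 1068 of 9856 and 1155 of 9855. With edgeR 13.1% and 8.25% of all genes passed in RNA with torin 1. In RNA Pelo fell with torin 1 in both genotypes, by 1.03 in control and by 1.09 in Ctu1KO cells on the log2 scale (edgeR, adjusted p = 0.00479 and 0.0143), and Eef1e1 fell by 0.48 in control cells (adjusted p = 0.0224). RNA of Gtpbp2, a rescue GTPase, rose by 0.65 and 0.70 (adjusted p = 0.00160 and 0.00586), and that of Vars, the valyl-tRNA synthetase that binds the exchange complex, rose by 0.34 in Ctu1KO cells (adjusted p = 0.0348).

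Of 14 genes tested that modify the factors, as in diphthamide synthesis on eEF2, lysine methylation and hypusination, only Eef1akmt4, an eEF1A lysine methyltransferase gene, was called in footprints with edgeR (-0.63 ± 0.17 with torin 1 in Ctu1KO cells). Over all genes edgeR called 8% with torin 1 in Ctu1KO cells. DESeq2 called 1 of the 14 lower with torin 1 in each genotype, and 1068 of 9856 and 1155 of 9855 genes. In RNA with torin 1 edgeR called 13.1% and 8.25% of all genes. In RNA Dph2, of the diphthamide pathway, fell with torin 1 by 0.78 in control (edgeR, adjusted p = 0.00318) and by 0.68 in Ctu1KO cells (adjusted p = 0.0315), and Eef1aknmt fell by 0.63 in control (adjusted p = 0.00644). Of 15 genes tested that act on eEF2K, 1 was called with edgeR, the S6 kinase family gene Rps6ka1, whose product p90RSK phosphorylates eEF2K. It was lower with Ctu1 loss in footprints under DMSO (-0.51 ± 0.10) and torin 1 (-0.70 ± 0.09), and in RNA it fell by 0.55 (adjusted p = 0.0141) and by 0.69 (adjusted p = 0.0492). Over all genes edgeR called 2.66% and 4.83% in these footprint comparisons and 5.12% and 1.31% in RNA. DESeq2 called more of the 15, with 1 higher in footprints with torin 1 in Ctu1KO cells, 3 lower in footprints with Ctu1 loss under torin 1, and 2 or 3 in each comparison of RNA. Over all genes DESeq2 called 1155 of 9855 and 842 of 9913 in these footprint comparisons. In RNA it called 1963 and 1609 genes for torin 1 and 1530 and 1092 for Ctu1 loss. The mitochondrial elongation factor genes Tufm, Tsfm, Gfm1, Gfm2 and Guf1 passed no edgeR test of footprints in the comparisons that involve torin 1. Their medians were -0.06 and -0.24 for torin 1 in control and Ctu1KO cells, where 0 and 1 of 5 had an unadjusted p under 0.05 and DESeq2 called none. Over all genes 2071 of 9856 and 2125 of 9855 had such a p. For Ctu1 loss under torin 1 the median of these 5 genes was -0.17, 2 of 5 had an unadjusted p under 0.05 and DESeq2 called 1. There 1863 of 9913 genes had such a p and DESeq2 called 842.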

How the data were processed

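Footprints and RNA were measured in 23 libraries each. The counts per gene are as the authors deposited them, in 1 table for DMSO and 1 for torin 1. The submitters' processing notes name cutadapt 3.4, UMI-tools 1.1.1 and STAR 2.5.3a for footprints and cutadapt 3.4 and STAR for RNA, with GRCm38/mm10, whereas the methods name a human genome. The tables list mouse symbols. Each entry had at least 100 footprints in a library, and no RNA count was odd, against 48.5% and 48.9% of footprint counts, for which no reason is given in the sources used here. The methods describe nuclease digestion before the RNA aliquot, and whether that aliquot was digested is not given.

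The tables held 10420 and 9936 entries, of which 23 each carried 1 of 11 repeated symbols and were left out, leaving 10397 and 9913 genes and 9857 in both. CPM are counts per 1000000 counts on these genes. All changes are thus relative to the other genes, and a change in total footprints or RNA per cell is not measured. Genes averaging 10 counts or more were tested with edgeR 4.0.16 (TMM scaling, quasi-likelihood F-test) in R 4.3.3, and p-values were adjusted by Benjamini-Hochberg over all genes tested, with a threshold of 0.05. Footprints used all replicates, RNA used replicates 1 to 3, and efficiency was an interaction of assay and condition over replicates 1 to 3. DESeq2 1.42.0, other scalings, filters and replicate sets were alternatives. The fits were tested on simulated data. No pair of libraries held identical counts.

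All 6 genes were named in every comparison, genes of the other lists where they passed the threshold or where the list was short, and for likeness the 3 nearest genes. The 6 genes and the lists were chosen with earlier results of these data known. Replicate numbers were checked for pairing by correlating deviations from group means. For RNA r was 0.49 to 0.839 over the 4 comparisons. For footprints r was 0.465 to 0.659 for torin 1 in control and 0.338 to 0.583 for Ctu1 loss under torin 1, and it reached down to -0.036 and -0.097 in the other comparisons. Every r was over 0.1 in RNA and in the first pair of footprint comparisons. The main fits nonetheless had no replicate term, and the replicate number as a block was an alternative.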

Additional observations from a re-analysis of the deposited data

Results flagged for a closer look

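Among 24 groups of footprint libraries (6 genes in 4 groups), 2 held a library far from the others, where chance alone flags about 1 in 20 groups. For Eef1a1 the library of Ctu1KO DMSO replicate 4 had 11048 CPM, while the others of its group had 9990 to 10275 CPM. For Eef1b2 the library of Ctu1KO torin 1 replicate 2 had 347 CPM, while the median of its group was 439 CPM.

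The effect of torin 1 on footprints differed between the genotypes for 3 genes in a fit over all 4 groups. The difference, Ctu1KO minus control on the log2 scale, was -1.22 for Eef1a1, -0.85 for Eef1b2 and -0.89 for Eef2. These genes were selected with these values in view, so the differences are a description.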

How the results depend on the processing

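Counts of calls among the 6 genes moved by at least 1.5 times in these cases, and the cause was not tested. For Ctu1 loss under DMSO the footprint count of 1 was 2 with DESeq2 and 0 with replicates 1 to 3, 1 and 2 or 3 to 6 alone. Under torin 1 the footprint count of 6 was 1 with replicates 1 to 3 and 0 with replicates 1 and 2. The count of 3 for the difference between torin 1 effects was 1 with replicates 1 to 3. In RNA the torin 1 count of 2 in control cells was 3 with DESeq2, DESeq2 size factors or replicates 1 and 2 alone and 1 with all replicates, and that of 2 in Ctu1KO cells was 3 with DESeq2 and 0 with all replicates. For Ctu1 loss under DMSO the RNA count of 0 was 1 with all replicates. The efficiency count of 2 for Ctu1 loss under torin 1 was 4 with DESeq2, 1 with library totals, 4 with all footprint replicates and 5 with all replicates of both assays.

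With the replicate number as a block, RNA counts were 5 and 4 for torin 1 in control and Ctu1KO cells and 1 and 3 for Ctu1 loss. Over all genes the block called 4206, 3378, 2831 and 3162 in these comparisons. In footprints the block added Eef1d (-0.25) for torin 1 in control cells, making 5, and changed no other footprint or efficiency call.

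With 1 library or library pair left out, footprint counts ranged from 4 to 4 and 5 to 5 for torin 1 in control and Ctu1KO cells, 1 to 1 and 4 to 6 for Ctu1 loss under DMSO and torin 1, and 2 to 3 for the difference. RNA counts ranged from 0 to 2 in both torin 1 comparisons and 0 to 0 for Ctu1 loss. Efficiency counts ranged from 3 to 4 and 4 to 4 for torin 1 and 0 to 0 and 0 to 1 for Ctu1 loss. In footprints with Ctu1 loss under torin 1, Eef2k lost its call without Ctu1KO torin 1 replicate 2 or 4 or control torin 1 replicate 1, 3, 5 or 6, and Eef1g without control torin 1 replicate 6. Eef2 lost that of the difference without Ctu1KO DMSO replicate 3. In RNA with torin 1 Eef1a1 lost its call without control DMSO replicate 2 and without any Ctu1KO library but torin 1 replicate 3, and Eef2 without control DMSO 1 or 2, control torin 1 replicate 1, Ctu1KO DMSO 1 or 2 or Ctu1KO torin 1 replicate 2. In efficiency Eef1g lost its torin 1 call without control DMSO replicate 2, Eef1d in Ctu1KO cells without any 1 pair, and for Ctu1 loss under torin 1 Eef1b2 without any 1 pair and Eef1a1 without control torin 1 replicate 2.

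Signs reversed near 0. The footprint change of Eef2k with torin 1 in control was 0.089 with library totals, 0.0088 with the block, 0.092 with replicates 1 to 3, 0.20 with replicates 1 and 2, and from -0.089 to 0.073 with 1 library left out. The RNA change of Eef1a1 with Ctu1 loss was 0.19 under DMSO and 0.087 under torin 1 with all replicates, and from -0.092 to 0.0023 and -0.070 to 0.049 with 1 library left out. In the same way RNA changes under DMSO ranged from -0.013 to 0.085 for Eef1d, -0.057 to 0.22 for Eef1g and -0.019 to 0.14 for Eef2, each lowest without Ctu1KO DMSO replicate 3, and under torin 1 from -0.034 to 0.24 for Eef1g, lowest without Ctu1KO torin 1 replicate 3.

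Over all genes the 714, 788, 277, 479 and 63 footprint calls (torin 1 in control and Ctu1KO cells, Ctu1 loss under DMSO and torin 1, difference) were 138, 178, 2, 1 and 2 with replicates 1 to 3, and 134, 145, 0 and 0 with replicates 1 and 2 for the first 4. DESeq2 called 700, 842 and 107 in the last 3, the block 2019, 1425 and 139 for torin 1 in control, Ctu1 loss under torin 1 and the difference, and replicates 3 to 6 called 184 for Ctu1 loss under DMSO. The 1259, 794, 518 and 126 RNA calls were 1963, 1609, 1530 and 1092 with DESeq2 and 4206, 3378, 2831 and 3162 with the block. All replicates gave 0, 2677 and 0 in the last 3 and replicates 1 and 2 gave 1547 and 12 in the last pair. The 113, 170, 0 and 11 efficiency calls were 227, 314, 21 and 99 with DESeq2, and all replicates gave 258, 5 and 112 in the last 3. All footprint replicates gave 2 and 63 in the last pair, and library totals 3 in the last. Leaving out 1 library gave as few as 144 and 301 footprint calls for Ctu1 loss, RNA calls as few as 412, 123, 0 and 1 (at most 406 in the last) and efficiency calls as few as 63, 105, 0 and 0. Library totals moved the median of all genes with torin 1 by 0.10 and 0.11 in footprints and 0.16 and 0.20 in efficiency.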

Other observations

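RNA values of replicates 4 to 6 entered the comparisons above only in the alternative with all replicates. Eef1a1 RNA was 11230 CPM in the library labelled control torin 1 replicate 4 and 8077 and 8051 CPM in those labelled 5 and 6, beside 8093 to 8462 CPM in the libraries labelled control DMSO 4 to 6. It was 10906 and 10861 CPM in the libraries labelled Ctu1KO DMSO 4 and 5, and 12272, 9101 and 9503 CPM in those labelled Ctu1KO torin 1 replicates 4, 5 and 6. Eef2 RNA was 2980, 2095 and 1878 CPM in the libraries labelled control torin 1 replicates 4, 5 and 6, 3139 and 2966 CPM in those labelled Ctu1KO DMSO 4 and 5, and 3219, 2376 and 2191 CPM in those labelled Ctu1KO torin 1 replicates 4, 5 and 6.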
